A study of Mus musculus with 12 samples.

Results

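The 10 genes described here carry the unfolded protein response, the program by which a cell answers misfolded protein in the endoplasmic reticulum (ER). They are Hspa5, Xbp1, Atf4, Ddit3, Atf6, Ern1, Eif2ak3, Dnajb9, Herpud1 and Sdf2l1, out of 19494 named genes on the arrays, and each was measured by 1 probe set. The first 9 were listed for their roles in the pathway, though with earlier results of these data known. Sdf2l1 was chosen by its measured log2 intensities, whose genotype differences had opposite signs in stem cells and progenitors, so those differences are given below as a description without a test.

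The cells came from donors with Nfat5 fl/fl Vav-Cre, called NFAT5-deficient, or with Nfat5 +/+ Vav-Cre, the control, called wild-type. Vav-Cre, a recombinase driven by the Vav promoter across the blood lineage, was thus present in all groups, and NFAT5 is the transcription factor through which many cells answer hypertonicity. Marrow of either genotype (CD45.2) had been transplanted into irradiated wild-type CD45.1 recipients, and CD45.2+ cells were sorted 13 weeks later. Hematopoietic stem cells (HSC, CD48-CD150+) and multipotent progenitors (MPP, CD48+CD150-) were taken within the LSK compartment of lineage-negative, Sca-1+, Kit+ cells. Each of the 4 groups held 3 arrays, numbered 64, 70 and 76 for NFAT5-deficient and 66, 67 and 75 for wild-type cells. Nothing in the labels says whether equal numbers in HSC and MPP mean the same mouse, so p-values measure the spread between these samples. The age of the mice is not given here, and recipients were irradiated, so all cells came from a regenerated marrow.

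In the unfolded protein response, the chaperone BiP, the product of Hspa5, keeps the membrane sensors inactive until unfolded protein draws it away. IRE1 (Ern1) then splices the Xbp1 mRNA, PERK (Eif2ak3) slows translation and favours ATF4, which induces CHOP (Ddit3), and ATF6 is cut in the Golgi to free a transcription factor. Together they raise chaperones and degradation factors, among them Hspa5, Dnajb9, Herpud1 and Sdf2l1. Mouse HSC are known for a low rate of protein synthesis, and in human HSC the PERK branch has been described as biased toward cell death under ER stress. Arrays read mRNA abundance only, so splicing of Xbp1, phosphorylation by PERK and cleavage of ATF6 were not measured.

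The promoters of 9 of the 10 genes were in the RefSeq table used here, and the windows run from 250 bases before to 50 after the start of the gene (GRCm38.p6). Those of Hspa5 and Herpud1 are shown because they carry an ER stress element, which ATF6 and XBP1 bind, and that of Sdf2l1 because its expression values set it apart from the other genes. Hspa5 (chr2:34771840-34772139, + strand) holds the full ER stress element, ERSE, and a TGACGTG site, both in capitals. Herpud1 (chr8:94386179-94386478, + strand) holds the variant ERSE-II, in capitals. In Sdf2l1 (chr16:17132334-17132633, - strand), capitals mark each CCAAT box and each CCACG motif on either strand, which occur there apart from each other.
Hspa5: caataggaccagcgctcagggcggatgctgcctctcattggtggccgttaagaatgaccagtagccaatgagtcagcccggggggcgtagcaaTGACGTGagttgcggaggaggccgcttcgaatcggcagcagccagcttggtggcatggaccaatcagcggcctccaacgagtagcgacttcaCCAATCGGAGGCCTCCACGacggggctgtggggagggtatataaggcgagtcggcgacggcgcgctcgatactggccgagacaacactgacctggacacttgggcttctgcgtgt
Herpud1: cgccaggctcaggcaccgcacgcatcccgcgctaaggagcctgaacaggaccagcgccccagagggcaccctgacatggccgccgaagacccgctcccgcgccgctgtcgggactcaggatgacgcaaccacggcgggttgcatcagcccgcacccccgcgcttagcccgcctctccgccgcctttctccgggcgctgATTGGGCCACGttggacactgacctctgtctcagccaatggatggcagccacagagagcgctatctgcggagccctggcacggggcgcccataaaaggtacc
Sdf2l1: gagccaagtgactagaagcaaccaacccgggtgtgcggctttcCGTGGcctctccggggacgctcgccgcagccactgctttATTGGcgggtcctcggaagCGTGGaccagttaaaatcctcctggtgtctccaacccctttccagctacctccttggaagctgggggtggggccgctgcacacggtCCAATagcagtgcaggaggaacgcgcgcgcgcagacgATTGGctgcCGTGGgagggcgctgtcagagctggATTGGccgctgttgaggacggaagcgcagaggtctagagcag

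Both strands were searched for exact letters. ERSE, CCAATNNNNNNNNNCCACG, was found in 0.119% of 32851 promoter windows and ERSE-II, ATTGGNCCACG, in 0.0365%, whereas the site TGACGTG was found in 2.01%. The ERSE of Hspa5 began 65 bases before the start of the gene and the ERSE-II of Herpud1 began 52 bases before. ERSE and ERSE-II contain the CCAAT box and the CCACG motif, which were found in 37.4% and 32.8% of windows. Sdf2l1 held neither full element in this window, which says only that those exact letters are not there.

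The sorted cells carried the mRNA of the markers that separate their gates. Slamf1, which encodes CD150, averaged 10.08 in NFAT5-deficient and 9.84 in wild-type HSC, against 6.46 and 6.26 in MPP. Cd48 averaged 6.50 and 6.48 in HSC, against 10.28 and 9.92 in MPP. A list of Cd48 with Flt3, Dntt and Satb1, which are not sorting markers here, averaged 5.74 in NFAT5-deficient HSC and 10.59 in NFAT5-deficient MPP. The 6 measured HSC and LSK markers averaged 9.49 and 8.67 there. Of these, Slamf1, Tek and Kit were higher in NFAT5-deficient HSC than MPP, and Procr (7.08 against 7.35), Cd34 and Ptprc lower. In wild-type cells Procr was higher in HSC (8.18 against 6.52 in MPP) and Kit slightly lower (11.31 against 11.43). The other markers of this list kept their direction. Kit, on which both gates rely, spanned 10.95 to 11.73, and the gene of Sca-1 was not analysed here. Nfat5 itself had 8.76, 8.34 and 7.62 in NFAT5-deficient HSC, against 9.81, 9.38 and 9.27 in wild-type HSC, and 7.63, 7.73 and 8.40 in NFAT5-deficient MPP, against 8.78, 8.85 and 8.12 in wild-type MPP. It was lower without overlap in HSC and overlapped in MPP (limma adjusted p = 0.772 and 0.896), and no source used here says whether its probe set reads the deleted part. Arrays of 1 group had correlations of 0.898 to 0.952 with each other over all genes. On the second principal component the most distant arrays were number 70 of NFAT5-deficient HSC (42.8) and number 66 of wild-type HSC (-58.1), called outlying below.

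All values below are log2 intensities as deposited, so a difference of 1 is a doubling of signal. As a gauge of unexpressed genes, 1091 olfactory receptor genes had a 95th percentile of 6.36. In all 4 groups 9 of the 10 genes lay above it. Herpud1 did so only in wild-type MPP, and its differences may therefore be compressed.

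None of the genes tested passed the threshold for loss of NFAT5. In HSC, limma called 0 of the 9 genes tested (0 at an unadjusted p under 0.05), beside 0% of all 19494 genes. In MPP it called 0 of 9 (0 at an unadjusted p under 0.05), beside 0.00513% of all genes, and with the populations averaged it called 0 of 9, also with 0 at an unadjusted p under 0.05, beside 0%. The difference between the HSC and MPP effects passed for 0 of 9 as well (0 at an unadjusted p under 0.05), beside 0% of all genes. These 9 genes had a median difference of 0.16 in HSC, where all genes had -0.05, and 0.05 in MPP, where all genes had -0.07. With the populations averaged the median was 0.15 for the 9 genes and -0.06 for all genes. In HSC all 9 had a value above 0, among 41.6% of all genes. The signs did not hold up gene by gene: 8 of the 9, all but Ern1, turned negative in HSC when some single array was left out. That array differed among genes, being wild-type 75 for Hspa5, NFAT5-deficient 70 for Atf6 and NFAT5-deficient 64 for Eif2ak3 and Herpud1. The 8 is therefore not a count from a single fit. Ddit3 also turned to -0.052 after quantile normalization.

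**Figure D1:**
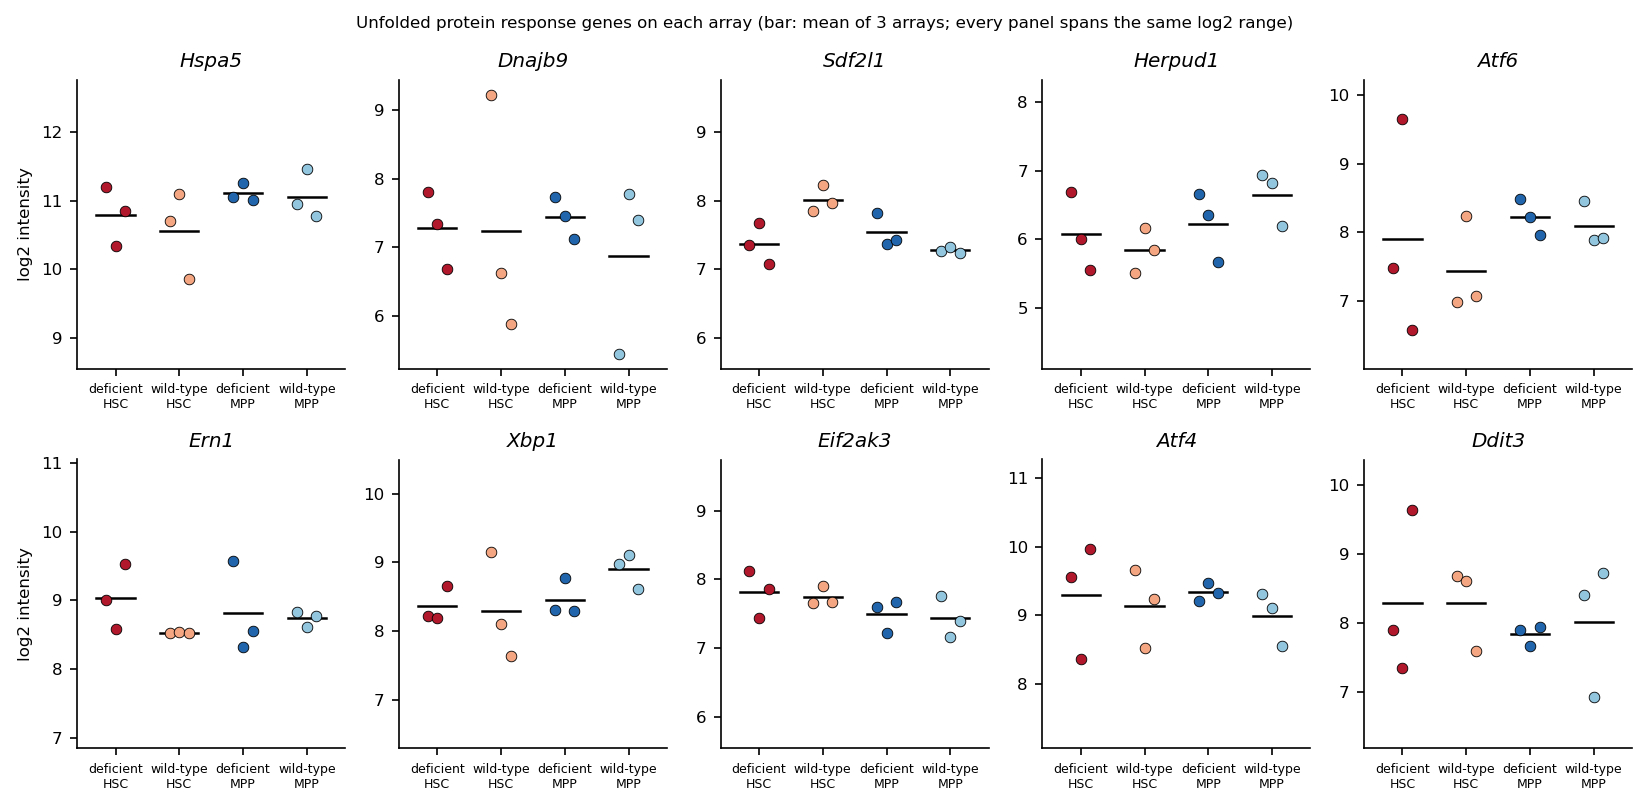
Log2 intensity (y axis) of the 10 genes on each array, by group (x axis; deficient: NFAT5-deficient), with a bar at the mean of 3 arrays; arrays run left to right as 64, 70, 76 or 66, 67, 75, and every panel spans the same log2 range. The 3 wild-type HSC arrays of Sdf2l1 lie above all others of that gene, the highest NFAT5-deficient value being 7.83 in MPP, whereas in Dnajb9, Atf6 and Ddit3 single arrays spread over more than 2 units.

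Among the sensors, Ern1, which encodes the kinase and nuclease IRE1, had 9.0, 8.59 and 9.52 in NFAT5-deficient HSC, against 8.53, 8.53 and 8.52 in wild-type HSC. All NFAT5-deficient values lay above the wild-type ones, by a mean of 0.51 (95% confidence interval -0.23 to 1.25, limma adjusted p = 0.881). It was 0.27 without NFAT5-deficient array 76 and 0.73 without NFAT5-deficient array 70. Groups that do not overlap were found for 10.2% of all genes in HSC and 12.6% in MPP. Apart from Sdf2l1, 1 of the 9 other genes (Ern1) was of this kind in HSC and 0 of 9 in MPP, which is near that background. In MPP, Ern1 had 9.57, 8.33 and 8.56 in NFAT5-deficient cells, against 8.83, 8.62 and 8.78 in wild-type cells. There the groups overlapped, with NFAT5-deficient array 64 alone above the rest.

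Eif2ak3, the PERK gene, varied little. It averaged 7.81 ± 0.34 in NFAT5-deficient and 7.75 ± 0.14 in wild-type HSC, and 7.50 ± 0.24 in NFAT5-deficient and 7.44 ± 0.30 in wild-type MPP (SD, n = 3 each). Its genotype differences were 0.07 in HSC (95% interval -0.48 to 0.61, limma adjusted p = 0.977) and 0.05 in MPP (-0.49 to 0.60, adjusted p = 0.985). Those intervals were the narrowest among the 9 genes and were still wide enough to hold a change of 0.48 log2 units in either direction.

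Atf6, the third sensor gene, had 7.48, 9.65 and 6.58 in NFAT5-deficient HSC, against 6.98, 8.24 and 7.08 in wild-type HSC. The groups overlapped, and array 70, one of the outlying arrays, held the highest value of all 12. The difference of 0.47 (95% interval -0.96 to 1.90, limma adjusted p = 0.937) turned to -0.40 without that array. In MPP, Atf6 was far tighter, at 8.23 ± 0.26 in NFAT5-deficient and 8.09 ± 0.31 in wild-type cells (SD, n = 3 each), a difference of 0.14 (limma adjusted p = 0.985).

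Of the transcription factors, Xbp1, the target of IRE1, averaged 8.36 ± 0.26 in NFAT5-deficient and 8.30 ± 0.78 in wild-type HSC, and 8.46 ± 0.28 in NFAT5-deficient and 8.90 ± 0.25 in wild-type MPP (SD, n = 3 each). The MPP difference was -0.44 (95% interval -1.25 to 0.37, limma adjusted p = 0.899), and the groups overlapped, the highest NFAT5-deficient value being 8.78 and the lowest wild-type value 8.61. Atf4 averaged 9.30 ± 0.83 in NFAT5-deficient and 9.14 ± 0.57 in wild-type HSC, and 9.34 ± 0.13 in NFAT5-deficient and 8.99 ± 0.39 in wild-type MPP. Its differences were 0.16 (limma adjusted p = 0.967) in HSC and 0.35 (adjusted p = 0.909) in MPP.

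Ddit3, which encodes the death-promoting factor CHOP, had 7.90, 7.35 and 9.63 in NFAT5-deficient HSC, against 8.68, 8.60 and 7.59 in wild-type HSC. The means were level, at 8.29 in either genotype, because array 76 stood more than 1 unit above the other NFAT5-deficient HSC arrays. The 95% interval ran from -1.35 to 1.35. In MPP it had 7.90, 7.67 and 7.93 in NFAT5-deficient cells, against 8.40, 6.92 and 8.72 in wild-type cells. NFAT5-deficient MPP arrays lay inside the wild-type range, with a difference of -0.18 (limma adjusted p = 0.979).

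Among the effectors, Hspa5 had 11.19, 10.34 and 10.85 in NFAT5-deficient HSC, against 10.70, 11.09 and 9.85 in wild-type HSC. It had 11.05, 11.26 and 11.01 in NFAT5-deficient MPP, against 10.95, 11.45 and 10.77 in wild-type MPP. The genotypes overlapped in both populations. The differences were 0.25 in HSC (95% interval -0.45 to 0.94, limma adjusted p = 0.936) and 0.05 in MPP (-0.65 to 0.75, adjusted p = 0.990). The HSC value turned to -0.10 without wild-type array 75.

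Dnajb9, which encodes the BiP co-chaperone ERdj4, was the most variable of the 10 genes. It had 7.80, 7.34 and 6.69 in NFAT5-deficient HSC, against 9.22, 6.62 and 5.88 in wild-type HSC. In MPP it had 7.73, 7.46 and 7.13 in NFAT5-deficient cells, against 5.45, 7.78 and 7.41 in wild-type cells. Number 66 was thus the highest wild-type array in HSC and the lowest in MPP, and array 66 of HSC was one of the outlying arrays. The genotype differences of 0.03 and 0.56 had 95% intervals of -1.75 to 1.82 in HSC and -1.22 to 2.35 in MPP (limma adjusted p = 0.997 and 0.925).

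Herpud1, which encodes a membrane factor of ER-associated degradation, averaged 6.08 ± 0.57 in NFAT5-deficient and 5.84 ± 0.33 in wild-type HSC, and 6.23 ± 0.51 in NFAT5-deficient and 6.65 ± 0.40 in wild-type MPP (SD, n = 3 each). Its differences were 0.24 in HSC (limma adjusted p = 0.937) and -0.42 in MPP (limma adjusted p = 0.899), and the genotypes overlapped in both. The MPP value was -0.14 without NFAT5-deficient array 76 and -0.65 without wild-type array 75.

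**Figure D2:**
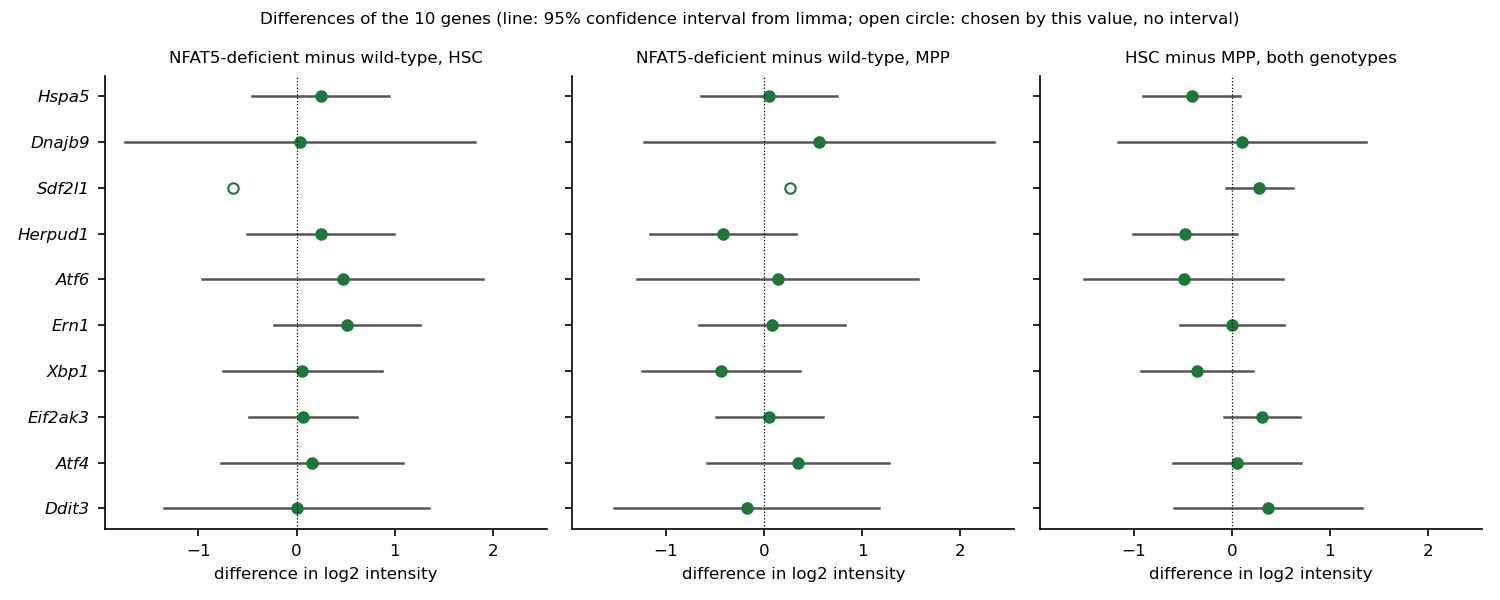
Differences in log2 intensity (x axis) for the 10 genes, with the 95% confidence interval from limma as a line, in 3 comparisons; the open circles of Sdf2l1 are the values by which it was chosen and have no interval. Every interval drawn crosses 0, and they are widest for Dnajb9, Atf6 and Ddit3.

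Sdf2l1 encodes an ER-resident protein that works with the BiP co-chaperone ERdj3. It had 7.36, 7.67 and 7.07 in NFAT5-deficient HSC, against 7.85, 8.23 and 7.96 in wild-type HSC. In MPP it had 7.83, 7.36 and 7.43 in NFAT5-deficient cells, against 7.27, 7.32 and 7.24 in wild-type cells. No NFAT5-deficient array overlapped the wild-type range in either population, on the low side in HSC and on the high side in MPP. The gap was 0.18 in HSC and 0.05 in MPP.

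The mean of Sdf2l1 was thus lower by a log2 value of -0.65 in NFAT5-deficient HSC, at 63.9% of the wild-type level, and higher by 0.26 in NFAT5-deficient MPP, at 120% of it. The same arrays gave an HSC minus MPP value of -0.17 in NFAT5-deficient and 0.74 in wild-type cells. In order, the group means were 8.01 in wild-type HSC, 7.54 in NFAT5-deficient MPP, 7.37 in NFAT5-deficient HSC and 7.28 in wild-type MPP, and only wild-type HSC lay apart from all other groups. Leaving out each array in turn kept both signs, with -0.80 to -0.50 in HSC and 0.12 to 0.35 in MPP. Since Sdf2l1 was chosen for these shifts, they are not evidence of an effect. Over all genes, 81 (0.416%) had genotypes apart in HSC and also in MPP, with opposite directions, and 44 of them (0.226%) had the direction of Sdf2l1.

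Mature plasma cells are rich in ER chaperones, and markers of other cells were therefore read beside Sdf2l1. Of 12 plasma cell markers, 9 were measured, and their mean per array was 5.73 to 5.90 in NFAT5-deficient and 5.91 to 6.12 in wild-type HSC. In MPP it was 5.70 to 6.11 in NFAT5-deficient and 5.97 to 6.41 in wild-type cells. The list was thus slightly lower in NFAT5-deficient HSC, as Sdf2l1 was, the nearest arrays of the 2 genotypes being 5.903 and 5.912. In MPP the arrays overlapped, with list means of 5.92 in NFAT5-deficient and 6.19 in wild-type cells. Sdf2l1 went the other way there, being higher in NFAT5-deficient MPP. By group mean, 2 of the 9 lay above the 95th percentile of olfactory receptor genes in NFAT5-deficient HSC and 3 of 9 in each other group. Tnfrsf13b, a receptor gene of B-lineage cells (6.72 to 7.96), and Derl3 (6.90 to 7.71), which is also one of the degradation genes below, lay above it on all 12 arrays. Mzb1 (4.53 to 5.18) and Prdm1 (4.01 to 4.76) lay below it on all 12. Jchain, another plasma cell gene, had 4.62, 4.46 and 4.47 in NFAT5-deficient HSC, against 4.73, 7.33 and 4.50 in wild-type HSC, and spanned 5.70 to 9.52 in NFAT5-deficient and 7.10 to 10.30 in wild-type MPP. The part of these cells in the Sdf2l1 values was not tested.

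The mean of 9 mature neutrophil genes was 5.42 to 5.53 in NFAT5-deficient HSC, against 6.88 (array 66), 7.38 (array 67) and 5.52 (array 75) in wild-type HSC. In MPP it was 6.02 to 6.62 in NFAT5-deficient and 5.96 to 7.02 in wild-type cells. Sdf2l1 read 7.85, 8.23 and 7.96 on the same wild-type HSC arrays, and the part of neutrophil RNA in its values was not tested. In bulk samples, fewer cells of a type and less RNA per cell cannot be told apart.

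The populations themselves were then compared over 6 HSC and 6 MPP arrays, with genotypes averaged. limma called 0 of the 10 genes (0 at an unadjusted p under 0.05), beside 0.61% of all genes. Herpud1 read 5.96 in HSC and 6.44 in MPP and Hspa5 10.67 in HSC and 11.08 in MPP, differences of -0.48 (95% interval -1.01 to 0.05, limma adjusted p = 0.455) and -0.41 (-0.90 to 0.09, adjusted p = 0.493). Eif2ak3 went the other way in value, at 7.78 in HSC and 7.47 in MPP, a difference of 0.31 (95% interval -0.08 to 0.70, limma adjusted p = 0.508).

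Sdf2l1 read 7.69 in HSC and 7.41 in MPP, a difference of 0.28 (95% interval -0.06 to 0.63, limma adjusted p = 0.498). That difference does not depend on the genotype differences by which the gene was chosen. The choice may have favoured a small spread, however, on which the interval and the p-value rest. Ern1 (0.00), Atf4 (0.05) and Dnajb9 (0.10) were level on average between HSC and MPP, and Xbp1 (-0.35), Atf6 (-0.49) and Ddit3 (0.37) had intervals that included 0. Single arrays moved these widely. Without NFAT5-deficient HSC array 76, Ddit3 was 0.036 and Atf6 was -0.16, without NFAT5-deficient HSC array 70 Atf6 was -0.92, and Xbp1 ran from -0.57 to -0.18 over wild-type HSC arrays 66 and 75 left out.

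Replicate spread differed widely among the 10 genes. The SD within groups was 1.12 for Dnajb9, 0.89 for Atf6 and 0.83 for Ddit3, where genes within 0.5 of their level had medians of 0.36, 0.52 and 0.54. Dnajb9 lay at the 94.4th percentile of its 3637 neighbours in level. At the other end, Sdf2l1 had an SD of 0.22 and Eif2ak3 0.27, at the 23.8th and 28.8th percentile. The choice of Sdf2l1 by its genotype differences may have favoured a small spread. Hspa5 (0.43, neighbours 0.26) and Herpud1 (0.46, neighbours 0.22) varied more than the median gene of like level, and Xbp1 (0.45, neighbours 0.57) and Ern1 (0.41, neighbours 0.55) less.

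**Figure D3:**
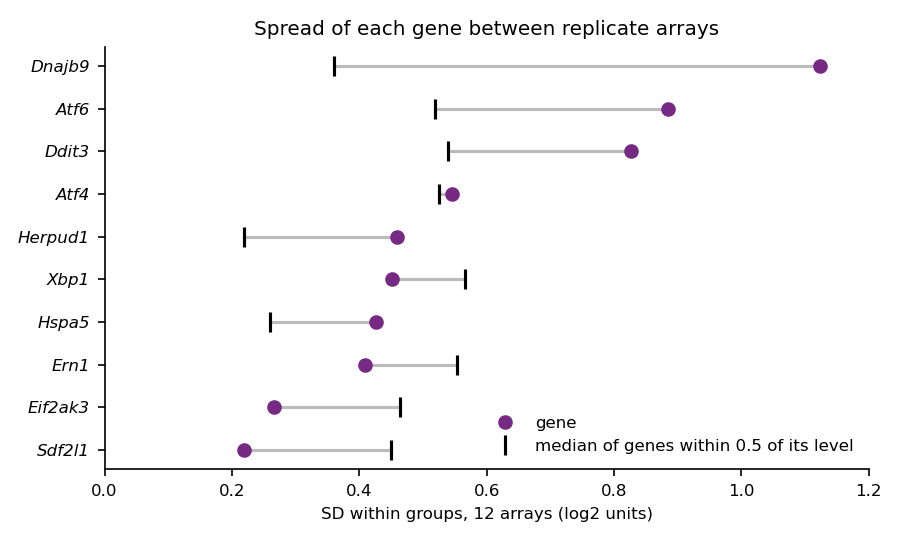
SD within groups over 12 arrays in log2 units (x axis, points) for the 10 genes (y axis), beside the median SD of all genes within 0.5 of the same level (ticks). Dnajb9, Atf6 and Ddit3 have the largest SD, 1.12, 0.89 and 0.83.

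The 10 genes did not move as a block from array to array. Over the 12 arrays, which span the 4 groups and may share mice between populations, the highest Pearson r were 0.54 between Hspa5 and Xbp1, 0.51 between Hspa5 and Herpud1 and 0.51 between Ddit3 and Eif2ak3. The closest other gene was Ern1 for Atf4 (0.35), Herpud1 for Atf6 (0.43), Ddit3 for Ern1 (0.43) and Xbp1 for Dnajb9 (0.39). Sdf2l1 had its highest r, 0.17, with Eif2ak3, and -0.50 with Xbp1. The lowest value was -0.72 between Atf4 and Atf6.

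Across 7825 genes with a mean of at least 7, the profile of Sdf2l1 was most like those of Plxnc1 (r = 0.85), Npr2 (0.85) and Cntln (0.84). For Hspa5 the nearest were Pdcd10 (0.90), Ctsc (0.90) and Ttll5 (0.86), and for Ddit3 Bap1 (0.87), Cyyr1 (0.87) and Slc11a1 (0.82). With so many genes and 12 arrays such values are easily reached, and the 100th gene in rank still had r of 0.63, 0.73 and 0.61.

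**Figure D4:**
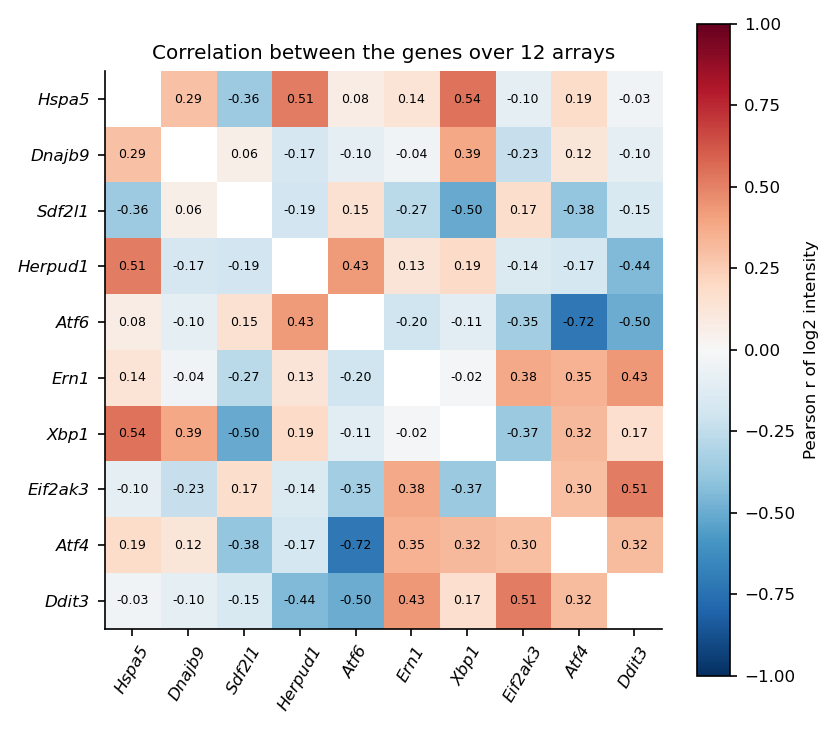
Pearson r of log2 intensity over 12 arrays between the 10 genes (both axes), on a colour scale from -1 to 1. Positive values are scattered, up to 0.54 for Hspa5 with Xbp1, and the lowest is -0.72 for Atf4 with Atf6.

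The rest of the pathway was read in 5 lists of 86 genes in all, of which 80 were measured. In the genotype comparisons 0 of 80 were called by limma, with 7 at an unadjusted p under 0.05 in HSC, 5 in MPP and 6 with populations averaged, beside 0%, 0.00513% and 0% of all genes called. For the difference between the HSC and MPP effects it was also 0 of 80, with 7 at an unadjusted p under 0.05.

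Among ER chaperones and folding enzymes, 14 of 18 had a higher value in NFAT5-deficient HSC, the median being 0.22 where all genes had -0.05. Hsp90b1, the ER form of HSP90, was level there (11.61 in NFAT5-deficient and 11.57 in wild-type HSC). Pdia6, a disulfide isomerase gene, read 8.75 in NFAT5-deficient and 7.77 in wild-type HSC (difference 0.98, limma adjusted p = 0.792). Creld2, an ER stress-induced folding factor gene, read 8.34 in NFAT5-deficient and 7.74 in wild-type HSC, a difference of 0.60 (limma adjusted p = 0.792). Hyou1, an ER chaperone gene, had 0.76 and Dnajc3, a BiP co-chaperone gene, had -0.17 (limma adjusted p = 0.896 and 0.930). Leaving out wild-type HSC array 75 gave a list median of 0.14, and leaving out array 66 gave 0.34. In MPP, 6 of 18 were higher in NFAT5-deficient cells, with a median of -0.07, equal to that of all genes.

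The partner and the paralog of Sdf2l1 had values of the opposite sign to it. Other listed genes had its signs, among them Dnajc3, which averaged 10.19 in NFAT5-deficient and 10.06 in wild-type MPP. Syvn1, Mbtps1 and Eif2ak4, given below, also had its signs. How common either pattern was among the listed genes was not counted. Dnajb11, which encodes the Sdf2l1 partner ERdj3, was picked after its values were seen and is therefore described without a test. It had 10.50, 10.68 and 10.40 in NFAT5-deficient HSC, against 9.46, 10.07 and 9.75 in wild-type HSC. In MPP it had 10.55, 10.32 and 9.87 in NFAT5-deficient cells, against 10.43, 10.49 and 10.76 in wild-type cells. In HSC the groups did not overlap, as in 10.2% of all genes, and the differences were 0.77 in HSC and -0.31 in MPP. Sdf2, the paralog, differed by 0.77 in HSC and -0.53 in MPP (limma adjusted p = 0.825 and 0.899). The differences between the HSC and MPP effects were 1.08 for Dnajb11 and 1.30 for Sdf2 (limma adjusted p = 0.999 for Sdf2).

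In ER-associated degradation and translocation, 14 of 21 genes were higher in value in NFAT5-deficient HSC (median 0.14) and 12 of 21 in NFAT5-deficient MPP (median 0.15). Of all genes, 41.6% were higher in HSC (median -0.05) and 38.9% in MPP (median -0.07). Without wild-type array 66 the HSC median of the list turned to -0.08, with 10 of 21 genes higher. The MPP median ran from 0.0047 without wild-type array 66 to 0.30 without NFAT5-deficient array 70. Syvn1, the ubiquitin ligase of this pathway, had -0.73 in HSC and 0.54 in MPP, and its partner Sel1l had -0.65 in HSC and -1.33 in MPP (limma adjusted p from 0.810 to 0.901). Edem1 (0.40 in HSC and -0.01 in MPP), Derl1 (1.17 and 0.15) and Derl3 (-0.27 and -0.26), which act in the recognition and export of misfolded protein, did not pass either.

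PERK and ATF4 targets had lower values in NFAT5-deficient cells for 15 of 20 genes in HSC (median -0.12) and 17 of 20 in MPP (median -0.11), where 58.4% and 61.1% of all genes were lower. With arrays centred on their medians the MPP count became 12 of 20, beside 53.7% of all genes, and without wild-type HSC array 75 the HSC median turned to 0.06. Trib3, a pseudokinase gene induced by CHOP, read 6.82 in NFAT5-deficient and 7.32 in wild-type HSC (difference -0.50, limma adjusted p = 0.779). Asns, the asparagine synthetase gene, had 0.99 in HSC and -0.58 in MPP. Ppp1r15a, Atf3 and Chac1 read 5.90, 5.61 and 6.10 in NFAT5-deficient HSC, at levels within the range of the olfactory receptor genes.

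The other sensors and transducers had medians of -0.03 in HSC and 0.00 in MPP, beside -0.05 and -0.07 for all genes. Single genes of this list ran from -0.71 to 1.38 in HSC and from -1.23 to 0.76 in MPP. Without NFAT5-deficient array 64 of the same population the medians became 0.08 in HSC and 0.26 in MPP. Atf6b, the ATF6 paralog, had 0.67 in HSC and 0.00 in MPP, Mbtps1, the protease that cuts ATF6, had -0.03 and 0.51, and Eif2ak4, the eIF2alpha kinase of amino acid starvation, had -0.12 and 0.64. The ER stress apoptosis genes had medians of 0.12 in HSC and -0.10 in MPP, and the HSC value turned to -0.10 without NFAT5-deficient array 70. Casp12, an ER-associated caspase gene, had 0.37 in HSC and -0.46 in MPP.

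Between populations, limma called 2 of the 80 genes, 1 higher in HSC and 1 lower, beside 0.298% of all genes higher and 0.313% lower, with 15 of 80 at an unadjusted p under 0.05. Calr, which encodes the lectin chaperone calreticulin, had 10.43, 10.31 and 10.67 in NFAT5-deficient and 10.22, 10.51 and 10.48 in wild-type HSC. In MPP it had 10.88, 11.01 and 10.79 in NFAT5-deficient and 11.47, 11.14 and 11.16 in wild-type cells. Every HSC array lay below every MPP array, as in 1.33% of all genes in either direction, and Calr fell by 0.64 in HSC (95% interval -0.87 to -0.41, limma adjusted p = 0.0246). The call was lost without any 1 of HSC arrays 64 and 70 or MPP arrays 64, 70 and 76 of NFAT5-deficient cells, without MPP array 66 or 75 of wild-type cells, and after quantile normalization.

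Nupr1, a stress-induced nuclear protein gene downstream of ATF4, read 10.77 in HSC and 6.64 in MPP and rose by 4.13 in HSC (95% interval 3.47 to 4.80, limma adjusted p = 0.00016). It was the only one of 20 PERK and ATF4 targets called between populations, and the list's median difference was 0.08, beside 0.06 for all genes. That median turned to -0.022 without wild-type HSC array 75 and was 0.15 without wild-type MPP array 66. Casp12 had 1.56 (limma adjusted p = 0.0928), which passes only the alternative threshold of 0.1. Among the fits without a single array, it was called at 0.05 only without wild-type HSC array 67. Of 18 chaperones and folding enzymes, 16 had lower values in HSC than in MPP, with a median of -0.20 that ran from -0.26 to -0.12 over the arrays left out, where 36.6% of all genes were lower. After centring of the arrays the count was 17 of 18, beside 47.1% of all genes.

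**Figure D5:**
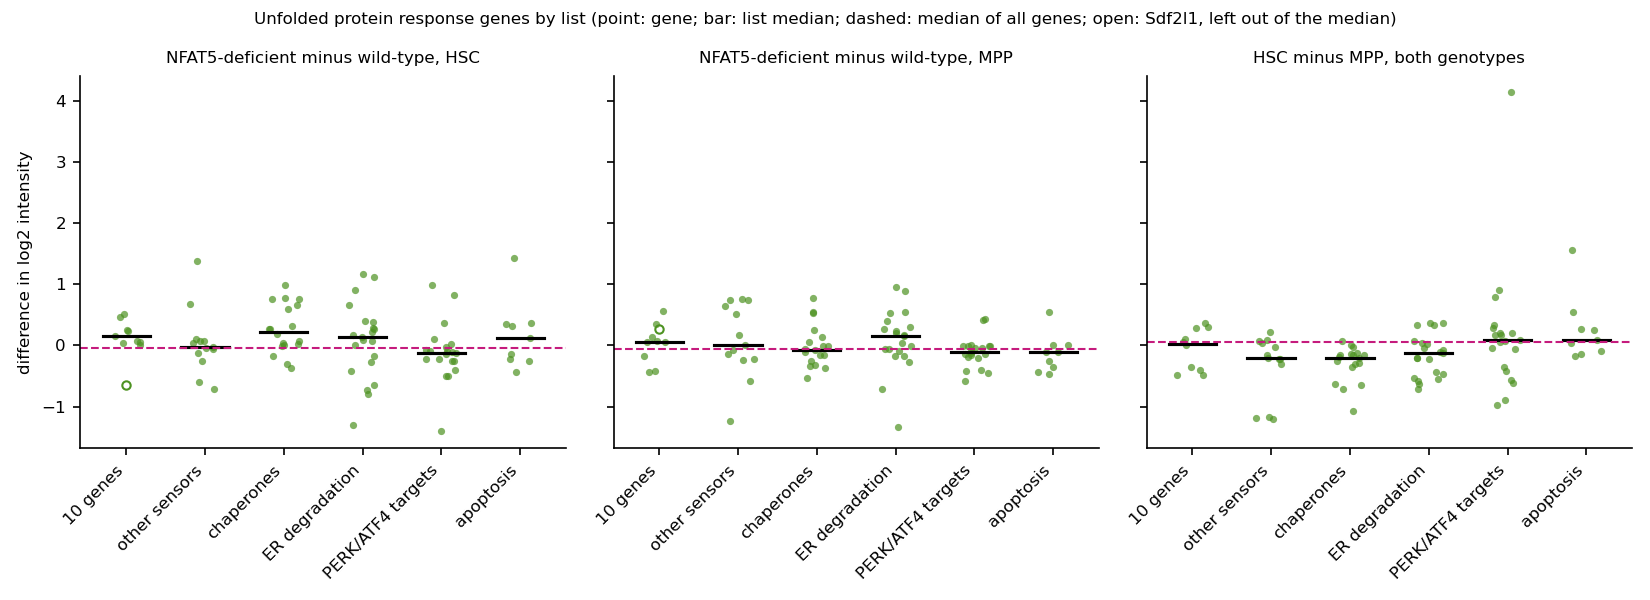
Differences in log2 intensity (y axis) for the 10 genes and the 5 lists of other unfolded protein response genes (x axis), with a point per gene, a bar at the list median and a dashed line at the median of all genes; the open circle is Sdf2l1, left out of the genotype medians. The chaperones have medians of 0.22 in the HSC genotype comparison and -0.20 between populations, and the point at 4.13 is Nupr1.

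The promoter elements were found without use of expression. Of 49 genes with an ERSE or ERSE-II in the promoter window, 37 were measured, which is 0.19% of all measured genes. Of these, 12 (32.4%) were among the 10 genes or the lists, which includes 10 of the 80 other genes (12.5%). The 12 were Calr, Canx, Creld2, Derl3, Dnajb11, Dnajc3, Ero1b, Herpud1, Hsp90b1, Hspa5, Pdia6 and Syvn1. All 12 were already counted above, so their values repeat those counts in part and are no separate support. Of the 12, 8 had a higher value in NFAT5-deficient than in wild-type HSC (median 0.05), beside 41.6% of all genes. In MPP 5 of the 12 were higher in NFAT5-deficient cells (median -0.04), beside 38.9% of all genes. Between populations 9 of the 12 were lower in HSC than in MPP, beside 36.6% of all genes. Their median there was -0.27, where all genes had 0.06. Over all 37 genes with an element the medians were 0.03 in HSC, -0.08 in MPP and -0.02 between populations. Of the 37, 21 were higher in NFAT5-deficient HSC, 16 in NFAT5-deficient MPP, and 19 were lower in HSC than in MPP.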

How the data were processed

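The authors deposited 1 table of log2 intensities for 22142 probe sets on 12 single-colour arrays. RMA and limma stand in the submitters' processing notes, with neither version nor role. The log2 scale was read from the values (2.51 to 13.28); no build or scan date stands in the sources used here, so no batch was tested, and for arrays their number limits the precision. Per the labels' protocols, each sample's 300 pg of RNA was amplified before labelling with biotin. Of the probe sets, 19527 had 1 gene symbol in the platform annotation, 0 several and 2615 none (not used). The brightest probe set stood for each gene with several (33 genes), leaving 19494 genes, with no filter or further normalization.

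limma 3.58.1 in R 4.3.3 was fitted with a mean per group over 12 arrays and an intensity trend. P-values were adjusted by Benjamini-Hochberg over all genes, and genes with an adjusted p under 0.05 were called. The 5 comparisons were the genotype difference (NFAT5-deficient minus wild-type) in HSC, in MPP and averaged, the difference of these effects, and HSC minus MPP averaged over genotypes. The fit was tested on simulated data. The genes, lists and alternatives were chosen with earlier results of these data known. The text names the 10 genes, Nfat5, listed genes named by rule whatever their values, each listed gene called, and Dnajb11, picked after its values were seen. Alternatives covered normalization, dim genes, the threshold, a replicate block and left-out arrays. Promoters came from RefSeq (GRCm38.p6). Drawings used Python 3.11.15 and matplotlib 3.10.9.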

Additional observations from a re-analysis of the deposited data

Results flagged for a closer look

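Sdf2l1 is listed because every NFAT5-deficient array lay below the wild-type mean in HSC (mean difference -0.65) and above it in MPP (mean difference 0.26). The difference between the genotype effects in HSC and MPP was not tested, since the gene had been chosen for it. Leaving out both outlying arrays moved the HSC value to -0.88.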

How the results depend on the processing

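Under every alternative run, 0 of the 9 genes tested for genotype and 0 of the 10 tested between populations were called, including under the replicate block (0 in the comparison of populations and in the difference of effects as a fixed term, and 0 in the averaged genotype comparison as a random block). The replicate block left 52 genes called between populations, against 119 without it. Of 6 numbers, 2 correlated best with their own number across HSC and MPP, and deviations of equal numbers correlated at -0.014 to 0.064. With only 3 candidate arrays for each number, this cannot show whether equal numbers were the same mouse. The main fit left samples unpaired, and the replicate block stood as the alternative. Fits without each array called 71 to 112 between populations (lowest without NFAT5-deficient MPP array 76), 0 to 3 for genotype in HSC (highest without wild-type HSC array 75), 0 to 4 in MPP (highest without NFAT5-deficient MPP array 76), 0 to 2 averaged (highest without wild-type HSC array 66) and 0 to 1 for the difference of effects. An adjusted p under 0.1 called 218 between populations, 7 in MPP and 1 for the difference. In MPP, 2 genes were called after quantile normalization, 3 after centring, and 0 among genes with a mean of at least 6, with only the groups compared or without the outlying arrays (chosen after seeing the data), where 79 were called between populations. The filter called 1 gene for the difference of effects.

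Signs of uncalled differences depended on single arrays. Without each array, the genotype difference in HSC ran from -0.10 to 0.52 for Hspa5, -0.27 to 0.49 for Xbp1, -0.18 to 0.63 for Atf4, -0.67 to 0.48 for Ddit3, -0.40 to 1.13 for Atf6, -0.089 to 0.25 for Eif2ak3, -0.65 to 1.02 for Dnajb9, -0.056 to 0.51 for Herpud1. In MPP it ran from -0.095 to 0.25 for Hspa5, -0.73 to 0.18 for Ddit3, -0.30 to 0.32 for Ern1, -0.086 to 0.21 for Eif2ak3, -0.15 to 1.01 for Dnajb9. Between populations it ran from -0.12 to 0.29 for Atf4, -0.12 to 0.19 for Ern1, -0.39 to 0.44 for Dnajb9. Other reversals were -0.052 for Ddit3 in HSC after quantile normalization, -0.049 for Ern1 between populations after centring, and, without the outlying arrays, -0.63 for Atf6 in HSC and -0.41 for Dnajb9 between populations. In all of these the cause was not tested. The 2 called genes of the other lists became 1 after quantile normalization and 1 without the outlying arrays, and ran from 1 to 3 without each array (both alternatives on arrays left out chosen after seeing the data). With 3 arrays per group, 95% intervals of the 9 genes reached 0.55 to 1.78 log2 units to each side within a population.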
